A study of Macaca fascicularis with 16 samples.

Results

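Milk is made by the secretory luminal cells of the mammary gland, which pack caseins into micelles, make lactose in the Golgi apparatus and release fat droplets wrapped in their own surface membrane. Prolactin acting through STAT5 is the main hormonal drive of the milk protein genes, and in pregnancy high progesterone holds full secretion back until birth. The 10 genes described here make milk proteins or take part in making and releasing milk fat. CSN2 encodes beta-casein, and CSN3 encodes kappa-casein, which caps the casein micelle and keeps it in suspension. LALBA encodes alpha-lactalbumin, the partner protein that turns the galactosyltransferase B4GALT1 into lactose synthase. PAEP encodes glycodelin, the primate relative of the whey protein beta-lactoglobulin of ruminants, and LPO encodes lactoperoxidase, an antibacterial enzyme of milk and other secretions. BTN1A1 (butyrophilin), XDH (xanthine dehydrogenase, also an enzyme of purine breakdown) and MUC15 (a mucin) belong to the membrane around the milk fat globule. OLAH encodes the thioesterase that, in the rat mammary gland, ends fatty acid synthesis early and so releases medium-chain fatty acids, and FABP3 encodes the fatty acid binding protein of heart, skeletal muscle and lactating mammary gland.

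The genes were chosen by name. Every probe set whose platform annotation gave 1 of these 10 symbols was taken, which gave 14 of the 52865 probe sets on the array: 3 for OLAH, 2 each for XDH and MUC15 and 1 for each of the other 7 genes. All 14 passed the filter on low signal that left 28704 probe sets and 10452 genes for testing. Where a gene had more than 1 probe set, values are those of its brightest one unless stated. In the RefSeq gene table of the cynomolgus assembly T2T-MFA8v1.1, 9 of the 10 symbols were found and PAEP was not matched. CSN2 and CSN3 are neighbours in the casein cluster of chromosome 5 in that table, with FDCSP, ODAM, PRR27 and HTN1 between them.

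RNA was measured in the mammary tissue of 16 female cynomolgus macaques (Macaca fascicularis), 4 in each of 4 groups and 1 array per animal. The treated groups received conjugated equine estrogens (CEE) at 0.042 mg/kg, the same dose of CEE with the synthetic progestin medroxyprogesterone acetate (MPA) at 0.167 mg/kg, or tibolone at 0.2 mg/kg, a steroid whose metabolites have estrogenic, progestogenic and androgenic activity. The tibolone arrays carry the label OD14-HIGH, and the control animals had no treatment. All animals, controls included, had had their ovaries removed and were described as post-menopausal. The labels state no ages, route or length of treatment, and no earlier pregnancy or lactation. The study asked how this tissue responds to hormone replacement therapy.

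Signals are in arbitrary linear units, scaled by the authors so that the trimmed mean of each array was 250.01 or 250.02, and the array carries probes designed for rhesus macaque. Between 48.6% and 51.8% of the probe sets of an array exceeded the filter signal of 60.2. Luminal markers were present on every array: EPCAM had 963 to 3548, ELF5 had 3127 to 16004 and KRT8 had 809 to 1641. Skeletal muscle markers were high on CEE+MPA replicate 1, tibolone replicates 2 and 3 and control replicate 1, where the muscle creatine kinase CKM had 727 to 2165 against 42.3 to 199 on the other 12. Poly-A spike-in controls split the arrays into a low set of 6 (2 CEE, 2 CEE+MPA and 2 control) and a high set of 10 that held all 4 tibolone arrays. Within the high set the mean log2 spike-in signal was 7.12 to 7.27 on the tibolone arrays and 7.43 to 7.85 on the others. Tibolone comparisons within that set therefore do not hold the spike-in level constant, and the 2 cannot be told apart there. Calls that were lost without the muscle-rich arrays or within a spike-in set are given with those values. Differences moved there whether they had passed or not. Of the 84 differences computed for the milk genes, 14 moved by over 1.5 times without the 4 muscle-rich arrays. Within the high set 29 of the 84 did, as did 18 of the 42 that could be computed within the low set.

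Both casein genes gave a very high signal in every animal, ovariectomized controls included. CSN2 had 15458, 11435, 13518 and 14222 in CEE animals, 13751, 15136, 15197 and 15596 in CEE+MPA animals, 17462, 12043, 11871 and 15888 in tibolone animals, and 12109, 12162, 12139 and 11988 in control animals. The 4 control values lay within 1.01-fold of each other, and the whole series spanned 1.53-fold. Its standard deviation over the 16 arrays was 0.19 on the log2 scale, smaller than that of most probe sets tested. On each array CSN2 ranked between 137 and 205 among 52766 probe sets.

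CSN3 had 20510.2, 19234, 20749 and 18248 in CEE animals, 20334, 23054, 24959.9 and 23896 in CEE+MPA animals, 24148, 15405, 10399 and 20814 in tibolone animals, and 17369, 17311, 18724 and 17529.7 in control animals. It ranked between 26 and 182 and was among the 100 brightest probe sets on 15 of the 16 arrays. The tibolone animals spanned 2.32-fold, against 1.08-fold in the controls, and the whole series spanned 2.40-fold. The standard deviation of CSN3 was 0.31 on the log2 scale, near the middle of all probe sets tested, of which 48.6% had a smaller one. The 100 brightest probe sets had a median standard deviation over the 16 arrays of 0.22 on the log2 scale, with 0.32 the highest. CSN2 had 44.9% to 60.4% of the signal of the brightest probe set of its array, and CSN3 had 49.9% to 83.5%. The deposited values carry no flag for saturated spots, and whether the scanner's range compressed either signal was not tested.

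All 4 CEE+MPA animals were above all 4 controls for both caseins, and neither difference passed the threshold. CSN2 averaged 14920.0 ± 805 in CEE+MPA animals and 12099 ± 77.6 in control animals (SD, n = 4 each). The log2 fold change was 0.30 ± 0.14 (SE), and limma gave an adjusted p of 0.205. CSN3 averaged 23061 ± 1978 in CEE+MPA animals and 17733 ± 667 in control animals, and the difference was 0.38 ± 0.20 on the log2 scale with an adjusted p of 0.258 in limma. Both SE pool the spread of all 4 groups, which was widest in tibolone animals. The log2 SD there was 0.28 for CSN2 and 0.54 for CSN3, against 0.080 and 0.13 in CEE+MPA and 0.0093 and 0.053 in control animals. Neither difference passed under any of the 33 alternative settings. Groups of 4 that did not overlap were found for 16.1% of all probe sets tested in that comparison, 6.65% of them in the higher direction.

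LALBA behaved otherwise: it was among the 100 brightest probe sets on 7 arrays, and its lowest value was close to the filter signal of 60.2. It had 2972, 17684, 6545 and 1039 in CEE animals, 20053, 2948, 11408 and 20179 in CEE+MPA animals, 23851, 16607, 799 and 106 in tibolone animals, and 16713, 16922, 10825 and 17956 in control animals. The highest and the lowest of the 16 values both came from tibolone animals and differed 226-fold. The spread was 17.0-fold among CEE animals, 6.84-fold among CEE+MPA animals and 1.66-fold among controls. Its rank on an array ran between 36 and 21735.

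LALBA had a standard deviation of 2.18 on the log2 scale over the 16 arrays, and 99.9% of the probe sets tested had a smaller one. The treatment groups accounted for 24.1% of its variance, without correction for the number of groups. Spread between animals alone gives such a share a positive value, and the share over all probe sets was not computed. Tissue was measured in bulk, so fewer secretory cells and less RNA per cell cannot be told apart. Its log2 fold changes against control were -1.81 ± 1.31 for CEE, -0.50 ± 1.31 for CEE+MPA and -2.61 ± 1.31 for tibolone (SE). The 95% interval for tibolone ran from -5.40 to 0.17 and the limma adjusted p was 0.913. Tibolone animals had the widest spread, with a log2 SD of 3.64 against 0.34 in controls. The size of difference that 4 animals a group could detect was not computed.

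**Figure D1:**
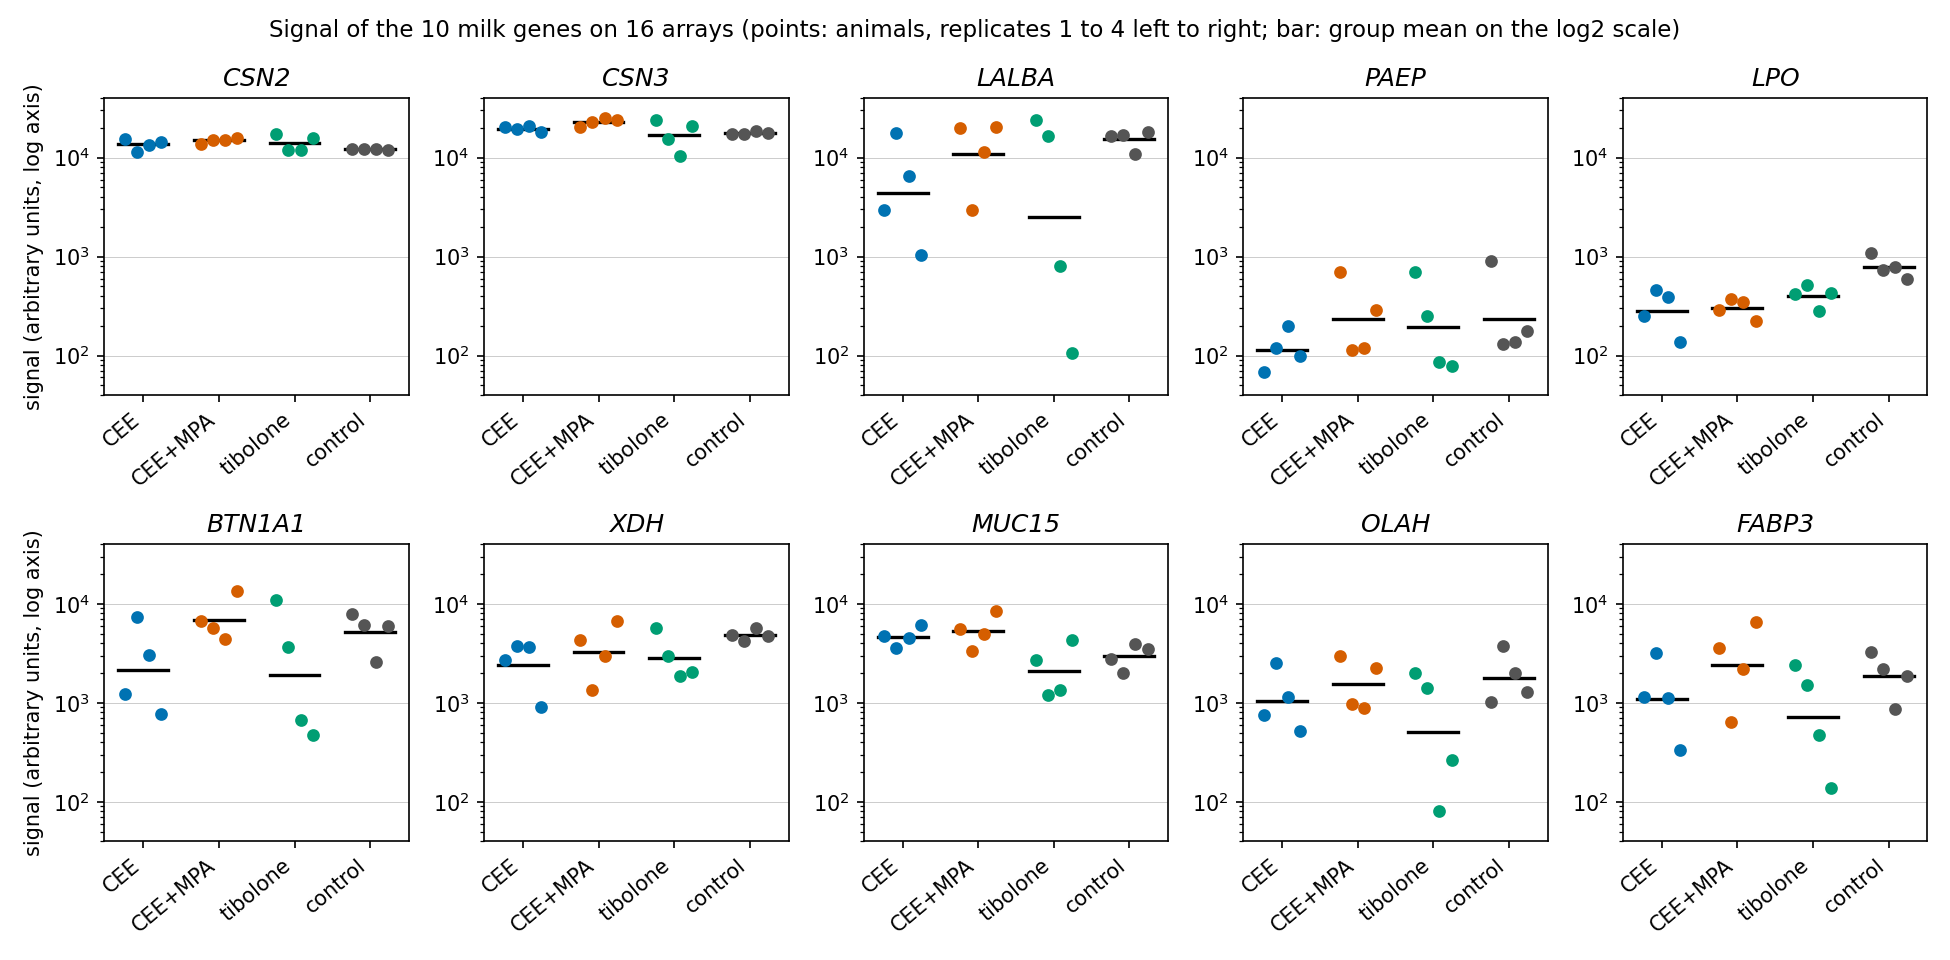
Signal of each of the 10 genes on a log axis (arbitrary units) in the CEE, CEE+MPA, tibolone and control animals, 1 point per animal in the order of replicates 1 to 4, with a bar at the group mean of log2 signal. No CSN2 or CSN3 value is below 10399, LALBA spans 106 to 23851, and the LPO values of all 12 treated animals lie below those of the 4 controls.

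LPO was the gene whose treated and control animals lay furthest apart relative to their spread, with all 12 treated animals below all 4 controls. It had 252, 463, 391 and 136 in CEE animals, 287, 371, 344 and 222 in CEE+MPA animals, 421, 520.5, 282 and 427 in tibolone animals, and 1083, 739, 784 and 597 in control animals. The highest treated value, in tibolone replicate 2, was below the lowest control. Of all probe sets tested, 8.95% separated CEE from control, 16.1% CEE+MPA from control and 3.43% tibolone from control, in either direction. The share that separated all 12 treated animals from the controls was not computed. LPO averaged 311 ± 145 in CEE animals, 306 ± 65.9 in CEE+MPA animals, 413 ± 98.1 in tibolone animals and 801 ± 204 in control animals (SD, n = 4 each). The groups accounted for 65.6% of its variance by the same uncorrected measure, the largest share among the 14 probe sets.

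LPO passed the threshold in CEE+MPA animals, where it fell by 1.33 ± 0.30 on the log2 scale (SE; limma adjusted p 0.0214). It was the only one of the 14 probe sets to pass there, and 6.34% of all probe sets tested passed in that comparison, 4.38% in the lower direction. For CEE the log2 fold change was -1.42 ± 0.30, with a 95% interval from -2.07 to -0.77 and an adjusted p of 0.0894 in limma. For tibolone it was -0.93 ± 0.30, with an adjusted p of 0.822 in limma. These 3 comparisons share the same 4 controls. The difference between CEE+MPA and CEE was 0.084 ± 0.30, with an interval from -0.56 to 0.73.

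The LPO call in CEE+MPA animals was lost under 5 alternatives. Without control replicate 1, the brightest control and a muscle-rich array, the CEE+MPA difference was -1.18 (adjusted p 0.0670 in limma), and without control replicate 2 it was -1.36 (adjusted p 0.0651 in limma). It was -1.16 without the 4 muscle-rich arrays (adjusted p 0.0926 in limma). It was -1.29 within the high and -1.38 within the low spike-in set, where limma gave adjusted p of 0.0927 and 0.348. Markers of several other cell types also moved in that comparison: AQP5, 1 of 4 tested genes of the skin and sweat gland list, and ACTG2, TRIM29 and CNN1, 3 of 5 of the basal and myoepithelial list, were called lower. The mean centred log2 signal of the skin and sweat gland list was -0.99 to -0.21 in CEE+MPA animals and 0.10 to 0.77 in control animals, and that of the basal list was -1.32 to -0.31 and 0.16 to 0.60 in the same order of groups. ERG, 1 of 7 tested endothelial genes, was also lower, and that list had -0.36 to -0.25 in CEE+MPA animals and -0.0080 to 0.52 in control animals. The luminal genes KRT19 and SPDEF, 2 of 15, were higher, where 1.95% of all probe sets tested were called higher. The mean of the luminal list overlapped between the groups, at -0.152 to 0.024 in CEE+MPA animals and -0.123 to 0.135 in control animals. The part of these tissue markers in the LPO difference was not tested.

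PAEP was dim on most arrays and bright on a few. It had 68.1, 118, 197 and 97.8 in CEE animals, 696, 115, 118 and 285 in CEE+MPA animals, 703, 251, 86.4 and 79.1 in tibolone animals, and 903, 132, 136 and 175 in control animals. A single animal stood out in the CEE+MPA, tibolone and control groups, at 696, 703 and 903, no CEE animal exceeded 197, and the groups overlapped in all 6 comparisons. The 696 and 903 were on muscle-rich arrays and the 703 was not, and no CEE array was muscle-rich. The CEE difference from control was -0.96 on the log2 scale, and -0.34 without the 4 muscle-rich arrays. The part of muscle in the PAEP signal was not tested. The groups accounted for 13.7% of the variance of PAEP by the same uncorrected measure, the smallest share among the 14 probe sets.

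**Figure D2:**
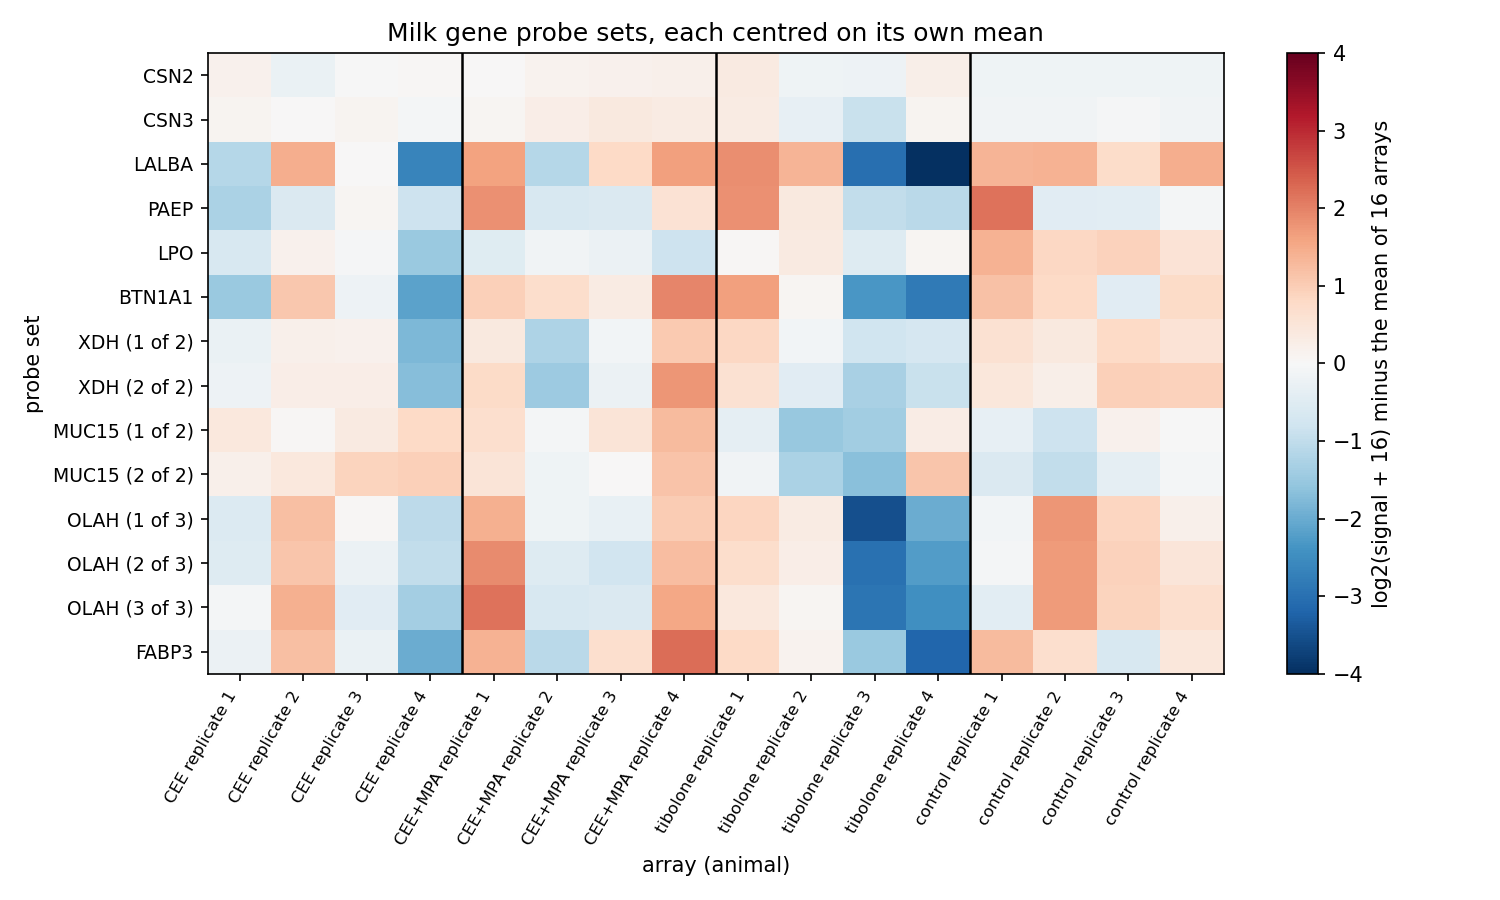
log2(signal + 16) of the 14 probe sets (down) on each of the 16 arrays (across, black lines between the groups), each minus its own mean over the arrays; red is above and blue below that mean. CEE replicate 4 and tibolone replicates 3 and 4 are blue for LALBA, BTN1A1, XDH, OLAH and FABP3 together, while the casein rows are nearly white.

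Among the fat globule genes, BTN1A1 had the widest range. It had 1225, 7413, 3023 and 770.2 in CEE animals, 6678, 5699.7, 4398 and 13471 in CEE+MPA animals, 10817, 3666, 673 and 472 in tibolone animals, and 7909, 6069, 2556 and 5914 in control animals. The range was 28.5-fold over all animals and 3.06-fold within the CEE+MPA group, where no animal was below 4398. The means were 3108 ± 3030 in CEE, 7561 ± 4049 in CEE+MPA, 3907 ± 4833 in tibolone and 5612 ± 2229.5 in control animals (SD, n = 4 each). The log2 fold change was 1.67 ± 0.85 for CEE+MPA against CEE (adjusted p 0.662 in limma) and -1.85 ± 0.85 for tibolone against CEE+MPA (adjusted p 0.186 in limma).

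XDH had 2689, 3729, 3621 and 909.5 in CEE animals, 4278, 1348, 2981 and 6630.4 in CEE+MPA animals, 5704, 2991, 1860.0 and 2031 in tibolone animals, and 4877, 4254, 5634 and 4762 in control animals. The controls lay within 1.32-fold of each other and every CEE animal was below them, with a log2 fold change of -1.01 ± 0.49 and an adjusted p of 0.413 in limma. Its other probe set followed the same pattern over the arrays (Pearson r 0.959, n = 16), but there the CEE and control groups overlapped. XDH is also made by capillary endothelium, and the endothelial marker PECAM1 had 1242 to 2798 over the 16 arrays.

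MUC15 was the only fat globule gene to pass the threshold between treatments, and by 1 of its 2 probe sets. It had 4717, 3594, 4515 and 6059 in CEE animals, 5563, 3344, 4983 and 8409.6 in CEE+MPA animals, 2705, 1205, 1337 and 4285 in tibolone animals, and 2785, 1988, 3944 and 3482 in control animals. The means were 4721 ± 1017 in CEE, 5575 ± 2111 in CEE+MPA, 2383 ± 1438 in tibolone and 3050 ± 853 in control animals (SD, n = 4 each). In tibolone animals it fell by 1.34 ± 0.37 on the log2 scale relative to CEE+MPA animals (SE; limma adjusted p 0.0430), although the groups overlapped, because tibolone replicate 4 was above CEE+MPA replicate 2. It was the only one of the 14 probe sets to pass in that comparison, where 6.34% of all probe sets tested passed, 2.56% in the lower direction.

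The second MUC15 probe set, which correlated with the first at r = 0.900 over the 16 arrays, gave -0.87 ± 0.47 for the same comparison and did not pass (limma adjusted p 0.257). It had 854, 1002, 1394 and 1458 in CEE animals and 495, 371, 584 and 701 in control animals, which did not overlap. The log2 fold change there was 1.11 ± 0.47 with a limma adjusted p of 0.354, against 0.65 ± 0.37 for the brighter probe set. For tibolone against CEE the brighter probe set gave -1.15 ± 0.37, with an adjusted p of 0.284 in limma.

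Tibolone replicates 2 and 3, which held 1205 and 1337, are among the 4 muscle-rich arrays, and without those 4 the tibolone difference from CEE+MPA was -0.61 (limma adjusted p 0.642). No probe set of the array passed in that comparison without those 4, against 1820 with them, and 209 and 295 passed without tibolone replicate 2 and without tibolone replicate 3. The MUC15 difference was -0.97 within the high spike-in set (limma adjusted p 0.214), where 564 probe sets passed. Leaving out any 1 of 9 arrays ended the call, with a limma adjusted p of 0.134 without tibolone replicate 2, 0.125 without tibolone replicate 3, 0.0842 to 0.0976 without CEE+MPA replicate 1, 3 or 4, and 0.0513 to 0.0534 without CEE replicate 1, 2 or 3 or control replicate 1. Without tibolone replicate 4 both MUC15 probe sets passed.

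**Figure D3:**
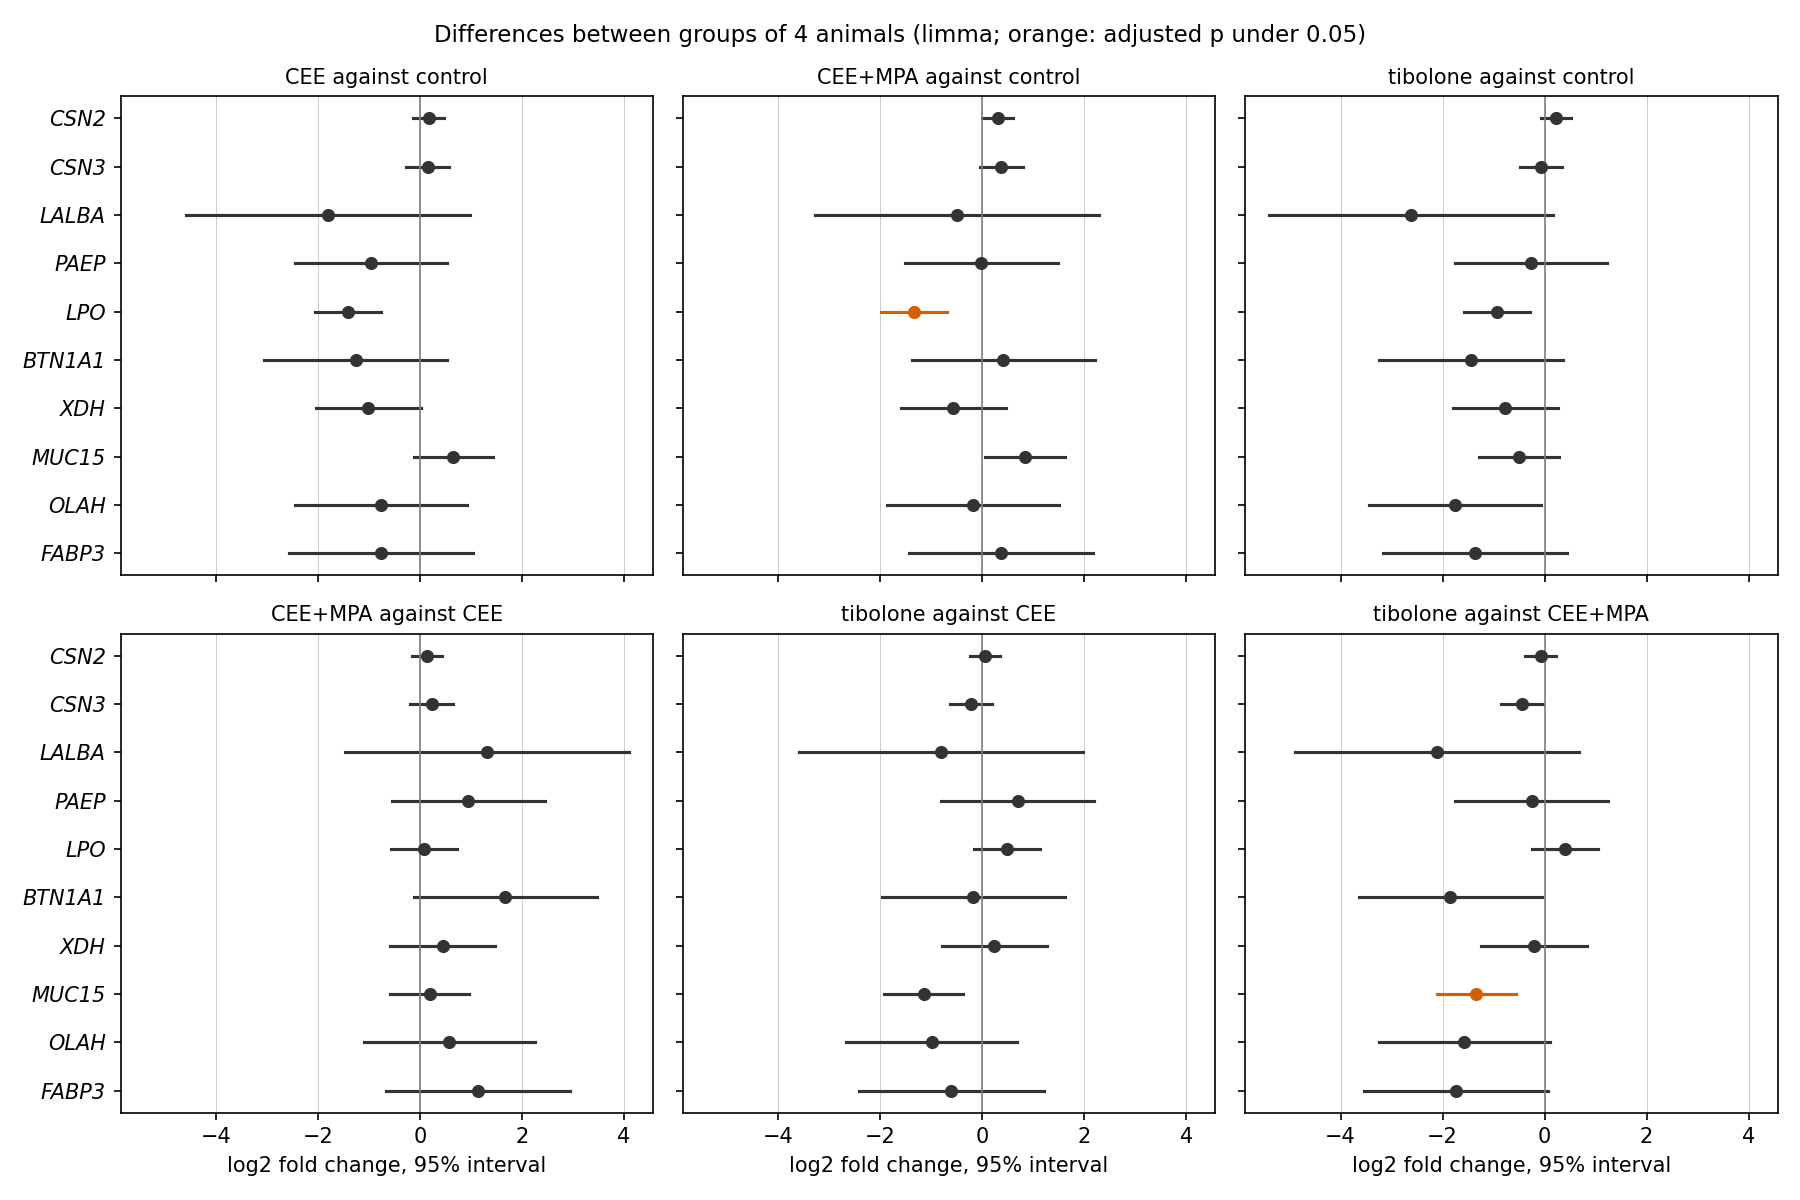
log2 fold change of each gene (points) with its 95% interval from limma (lines) in the 6 comparisons, each panel giving the first-named group minus the second. LPO in CEE+MPA against control and MUC15 in tibolone against CEE+MPA, in orange, passed an adjusted p of 0.05, and the LALBA intervals are the widest.

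The genes for milk fatty acids varied as widely as BTN1A1. OLAH had 755, 2543, 1139.8 and 521 in CEE animals, 2968, 977, 892 and 2233 in CEE+MPA animals, 2001, 1395, 80.6 and 266 in tibolone animals, and 1017, 3753, 2011 and 1276 in control animals. Its 3 probe sets spanned 46.5-, 36.0- and 45.3-fold and followed each other closely, with pairwise r of 0.952 to 0.985 over the 16 arrays. In each of them tibolone replicates 3 and 4 were lowest. Tibolone against control gave -1.76 ± 0.79, an unadjusted p of 0.0417 and an adjusted p of 0.913 in limma.

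FABP3 had 1149, 3181, 1130.3 and 333 in CEE animals, 3579.9, 638, 2197 and 6538 in CEE+MPA animals, 2408, 1519, 473 and 137 in tibolone animals, and 3269.9, 2204, 872 and 1884 in control animals. The range was 47.7-fold, and the groups overlapped in all 6 comparisons. Skeletal muscle also makes FABP3, which had 473 to 3580 on the 4 muscle-rich arrays (median 2395) and 137 to 6538 on the other 12 (median 1517). The part of muscle in its signal was not tested. Tibolone against CEE+MPA gave -1.73 ± 0.85, with an adjusted p of 0.217 in limma.

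Few of the 14 probe sets passed in any comparison. None passed for CEE against control, where 0.0732% of all probe sets tested did, or for tibolone against control, where 0.0244% did. None passed for CEE+MPA against CEE (0.0209% of all probe sets) or for tibolone against CEE (0.00697%). Those 4 comparisons had 2, 4, 0 and 2 of the 14 with an unadjusted limma p under 0.05, against 12.5%, 5.41%, 7.72% and 11.9% of all probe sets tested. In the comparisons with a call it was 3 of 14 for CEE+MPA against control (24.1% of all) and 4 of 14 for tibolone against CEE+MPA (25.1%).

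Groups did not overlap for 3 of the 14 for CEE against control (8.95% of all probe sets), namely LPO, XDH and the second MUC15 probe set, and for LPO alone for tibolone against control (3.43%). No milk probe set separated CEE+MPA from CEE (5.07%), tibolone from CEE (5.42%) or tibolone from CEE+MPA (13.1%). For CEE+MPA against control the separate ones were LPO, CSN2 and CSN3.

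The median log2 fold change of the 10 genes against control was -0.86 for CEE, 0.14 for CEE+MPA and -0.85 for tibolone, beside 0.0038, -0.013 and 0.0081 over all probe sets tested. The fold change was negative for 7 of 10 genes with CEE, 5 with CEE+MPA and 9 with tibolone. Between treatments, CEE+MPA against CEE was positive for all 10 genes, by their brightest probe sets, with a median of 0.51. The second MUC15 probe set gave -0.23 there, and LPO averaged 306 in CEE+MPA and 311 in CEE animals although its log2 difference was 0.084. For CSN2, LPO, MUC15, PAEP and XDH the sign turned negative in 1 to 3 of the 33 alternative settings each. Tibolone against CEE+MPA was negative for 9 of 10 with a median of -0.89. Over all probe sets the medians of these comparisons were -0.016 for CEE+MPA against CEE and 0.039 for tibolone against CEE+MPA. The treated groups share their arrays between these comparisons, as do the comparisons with control.

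The low values fell on the same animals. Across LALBA, BTN1A1, XDH, OLAH and FABP3, the 3 lowest of the 16 arrays included CEE replicate 4 for all 5 genes, tibolone replicate 3 for 5 and tibolone replicate 4 for 4. CEE+MPA replicate 2 took the remaining place, for XDH. These 5 genes were grouped after their values were seen. Over all 10 genes, tibolone replicate 3 was among the 3 lowest arrays for 9, caseins included, CEE replicate 4 for 6 and tibolone replicate 4 for 5. Other animals of the same groups were among the brightest: tibolone replicate 1 had the highest LALBA of the series.

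EPCAM was 3548 on CEE replicate 4, the highest of the 16, 3016 on tibolone replicate 4, and 963 on tibolone replicate 3, the lowest, beside a median of 2160. The mean of the 15 luminal markers tested, each centred on its mean over the arrays, was 0.001 on CEE replicate 4, -0.28 on tibolone replicate 4 and -0.42 on tibolone replicate 3 on the log2 scale. The tibolone values were the lowest of the 16 arrays, and that of CEE replicate 4 was the lowest of its group. The luminal list includes MUC1, itself a mucin of the fat globule membrane, which had 385, 322 and 112 on the same 3 arrays. The part of MUC1 in these means, and in the luminal covariate made from them, was not tested. Adipocyte markers went both ways, at -0.80, -0.84 and 0.88 on the same 3 arrays. CSN3 was 18248 and 20814 on CEE replicate 4 and tibolone replicate 4, and 10399 on tibolone replicate 3. With the luminal mean as a covariate LALBA gave -2.88 ± 0.96 for CEE and -2.85 ± 0.92 for tibolone against control (limma adjusted p 0.238 and 0.778), and with the muscle mean it gave -1.10 ± 1.40 and -2.86 ± 1.30 (limma adjusted p 0.918 and 0.851).

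Because LALBA had the largest standard deviation, it was set against each of the other 9 genes over the 16 animals, a choice made after the values were seen. FABP3 and BTN1A1 followed it most closely, with Pearson r of 0.917 and 0.896 and Spearman rho of 0.903 for both. Their permutation p (two-sided, 100000 permutations) for r was 1e-05, the smallest these permutations can give, and 4.5e-05 after Benjamini-Hochberg adjustment over the 9 relations. OLAH had an r of 0.825 and a rho of 0.809 (adjusted permutation p 0.00126 and 0.000788), XDH an r of 0.746 and a rho of 0.838 (0.0038 and 0.00036), and PAEP an r of 0.616 and a rho of 0.774 (0.0205 and 0.00115).

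These 5 relations did not rest on the 2 animals farthest from the median of LALBA, tibolone replicates 3 and 4. Without them r was 0.853 for FABP3, 0.821 for BTN1A1, 0.759 for OLAH, 0.878 for XDH and 0.602 for PAEP. Within the low spike-in set of 6 arrays r was 0.669, 0.915, 0.822, 0.695 and 0.693 for the same genes, and within the high set of 10 it was 0.969, 0.911, 0.795, 0.707 and 0.684. With each value taken relative to its treatment group's mean, r was 0.912 for FABP3, 0.892 for BTN1A1, 0.777 for OLAH, 0.730 for XDH and 0.634 for PAEP.

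The caseins, LPO and MUC15 were not shown to follow LALBA. The r was -0.244 for CSN2, 0.229 for CSN3, 0.377 for LPO and -0.025 for MUC15, and rho was -0.018, 0.144, 0.224 and -0.0029 in the same order. Adjusted permutation p for r were 0.416, 0.416, 0.228 and 0.928, and for rho 0.995, 0.762, 0.604 and 0.995. Without tibolone replicates 3 and 4, r was 0.563 for LPO and -0.306 for MUC15.

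**Figure D4:**
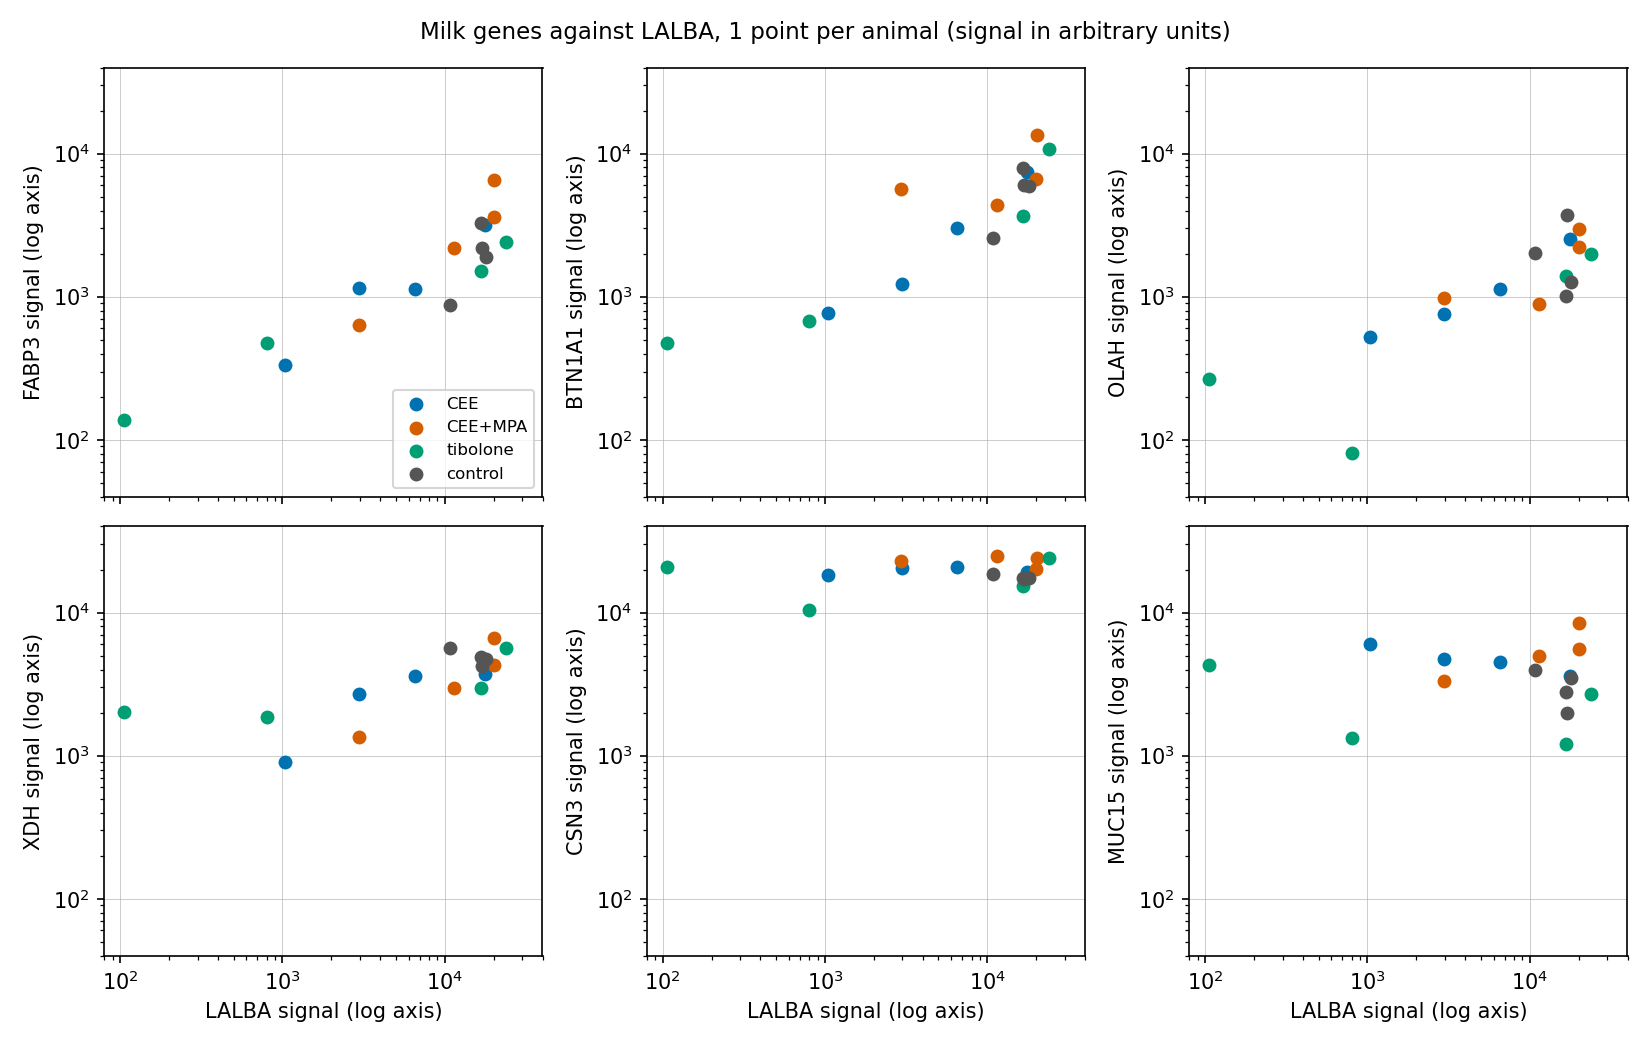
Signal of 6 genes against the signal of LALBA, both on log axes in arbitrary units, 1 point per animal, coloured by group (CEE, CEE+MPA, tibolone, control). FABP3, BTN1A1, OLAH and XDH climb with LALBA within and across the groups, while CSN3 stays between 10399 and 24960 and MUC15 shows no trend (r = -0.025).

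Over the same 16 arrays, 10442 other genes were searched for the patterns most like those of LALBA, BTN1A1 and FABP3, the 3 genes with the largest standard deviations. The relation of LALBA with FABP3 and with BTN1A1 exceeded that with every one of them. The nearest to LALBA were AQP3, a channel for water and glycerol (r 0.826), FOCAD (0.813) and the circadian factor ARNTL2 (0.782), of which FOCAD ranged only between 1869 and 2318. The nearest to BTN1A1 were SEC16B (0.852), LRG1 (0.847) and MUC1, another mucin of the fat globule membrane (0.816), which had 112 to 2804. The nearest to FABP3 were CHRNA3 (0.844), EZR (0.815) and ARNTL2 (0.775). These values describe the highest of many correlations, and all share the same arrays.

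Other genes of the milk pathways were counted from 4 lists. Of 18 other milk and fat globule proteins 8 were tested, with no call in 5 comparisons. In CEE+MPA animals 2 were lower than in controls: SPP1 (osteopontin, abundant in milk and also made by macrophages and bone cells) averaged 1335 ± 2068 in CEE+MPA and 9658 ± 2548 in control animals, and fell by 4.13 ± 1.06 on the log2 scale (limma adjusted p 0.0338). PTHLH, the parathyroid hormone-related hormone of lactation, averaged 81.8 ± 31.7 and 194 ± 32.4 in the same groups and fell by 1.15 ± 0.29 (limma adjusted p 0.0305). In all, 4.38% of the probe sets tested were called lower in that comparison. SPP1 averaged 883 ± 824 in CEE animals, where its difference from control was -3.94 ± 1.06 and did not pass (limma adjusted p 0.184). Both calls were lost without the 4 muscle-rich arrays, where limma gave adjusted p of 0.120 for SPP1 (-4.12) and 0.0729 for PTHLH, and within the low spike-in set, where they gave -2.22 and -0.84. Within the high set SPP1 still passed (-6.05, limma adjusted p 0.0330) and PTHLH did not (-1.45, limma adjusted p 0.0619). Both were also lost on leaving out any 1 of CEE+MPA replicates 1 to 3 or control replicates 1 to 3. The macrophage list had 1 of 5 tested genes lower there (MS4A7), and the mean of its centred log2 signals was -0.29 to 0.064 in CEE+MPA animals and 0.25 to 0.53 in control animals. Its part in the SPP1 difference was not tested.

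For lactose and fat synthesis, 4 of 7 and 15 of 20 listed genes were tested. B4GALT1, the enzyme that LALBA partners, averaged 6106 ± 1827 in tibolone animals and 11162 ± 2716 in CEE+MPA animals, and fell by 0.89 ± 0.23 on the log2 scale (limma adjusted p 0.0376). ACSS2, which makes acetyl-CoA from acetate, averaged 1422 ± 341 in CEE+MPA animals and 734 ± 96.2 in control animals, and rose by 0.92 ± 0.22 (limma adjusted p 0.0251). It averaged 619 ± 186 in tibolone animals, below CEE+MPA by 1.19 ± 0.22 (log2 fold change -1.19, limma adjusted p 0.0114). These were the only calls on the 2 lists in the 6 comparisons. Of all probe sets tested, 6.34% passed in CEE+MPA against control and 6.34% in tibolone against CEE+MPA. The tibolone calls were lost without the 4 muscle-rich arrays, where no probe set passed and ACSS2 gave -1.10 and B4GALT1 -0.65 (limma adjusted p 0.305 and 0.478). They were lost within the high spike-in set too (limma adjusted p 0.0743 for ACSS2 and 0.155 for B4GALT1). The ACSS2 difference of CEE+MPA from control was 0.92 without those 4 arrays, 0.68 within the high set and 1.16 within the low set, and it passed in none of them (limma adjusted p 0.0902, 0.215 and 0.325).

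The prolactin list, of which 11 of 12 genes were tested, had 4 calls in each of 2 comparisons and none in the other 4. In CEE+MPA animals the prolactin signalling factors STAT5A and STAT5B and their target CISH, a feedback inhibitor, rose by 1.71 ± 0.33, 1.31 ± 0.27 and 1.83 ± 0.39 on the log2 scale relative to control (limma adjusted p 0.0107, 0.0140 and 0.0157). JAK2, the kinase that phosphorylates STAT5, fell by 0.99 ± 0.22 (limma adjusted p 0.0213). In tibolone animals STAT5A, STAT5B and ELF5, a transcription factor of milk-secreting alveolar cells, fell by 1.24 ± 0.33, 1.13 ± 0.27 and 1.31 ± 0.33 relative to CEE+MPA, and JAK2 rose by 0.92 ± 0.22 (limma adjusted p 0.0402, 0.0278, 0.0352 and 0.0312). In each of these comparisons 6.34% of all probe sets tested passed. LALBA, CSN2 and CSN3 did not pass in either.

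CEE alone gave differences from control in the same direction that did not pass. They were 1.56 ± 0.33 for STAT5A, 1.13 ± 0.27 for STAT5B and 1.74 ± 0.39 for CISH (limma adjusted p 0.083, 0.134 and 0.103). The CEE and control groups did not overlap for any of these genes, as was so for 8.95% of all probe sets tested. Between CEE+MPA and CEE the differences were 0.15 ± 0.33, 0.18 ± 0.27 and 0.089 ± 0.39 for the same genes. For JAK2 the CEE difference from control was -0.25 and that between CEE+MPA and CEE was -0.73 (limma adjusted p 0.418).

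The prolactin list calls also depended on the arrays used, by alternatives applied to these genes after the data were seen. Without the 4 muscle-rich arrays, STAT5B and CISH still passed in CEE+MPA against control (1.41 and 2.11, limma adjusted p 0.0258 and 0.0252), and STAT5A and JAK2 did not (limma adjusted p 0.0548 and 0.0669). Within the high spike-in set STAT5A and STAT5B passed (2.22 and 1.70, limma adjusted p 0.0168 and 0.0326), CISH (1.24) and JAK2 (-0.84) did not, and within the low set none did. In tibolone against CEE+MPA none of the 6 listed genes called on all arrays passed without the muscle-rich arrays (limma adjusted p 0.305 to 0.517) or within the high set (0.0640 to 0.155). There STAT5A gave -0.98 and -1.15, STAT5B -0.86 and -1.28, ELF5 -0.61 and -1.37, and JAK2 0.84 and 0.76. Leaving out 1 array kept between 1 and 6 of those 6 calls, with ACSS2 alone left without tibolone replicate 2 or 3 or CEE+MPA replicate 3 or 4. For CEE+MPA against control it kept between 1 and 7 of 7, with STAT5A alone left without control replicate 2, and 3 left without control replicate 1 or CEE+MPA replicate 3.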

How the data were processed

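Biotin-labelled total RNA of each animal was read on 1 Affymetrix array made for rhesus macaque. The deposited values were linear signal intensity per probe set, scaled by the authors to a common mean after trimming 2% at each end, as the values show. GCOS and Affymetrix Expression Console are named per the submitters' processing notes, and which algorithm or version was used is not given in the sources here.

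Of 52865 probe sets, 99 controls were left out. The annotation gave several symbols to 361 and none to 27535. Probe sets with a signal over 60.2, the table's median, in at least 4 of 16 arrays were tested. One limma model (limma 3.58.1, R 4.3.3) of 4 group means was fitted to log2(signal + 16) over all 16 arrays, which understates fold changes of dim genes. In it 6 comparisons were adjusted by Benjamini-Hochberg over all 28704 probe sets within each comparison, and an adjusted p under 0.05 counted as passing. No pair of arrays held identical values. The script was tested on simulated data. Precision is limited by the number of arrays, and limma p-values set each group difference against the spread between these animals.

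The members and the gene lists were chosen with earlier results of these data known, so list counts are not independent evidence. All members are named; list genes are named where they passed in any comparison; the genes most like LALBA, BTN1A1 and FABP3 are the 3 with the highest Pearson r to each. Alternatives covered the scaling, filter, offset, variance model, array weights, probe set choice, spike-in sets, muscle and luminal content, the threshold and each array left out.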

Additional observations from a re-analysis of the deposited data

Results flagged for a closer look

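Among 56 sets of 4 animals (14 probe sets in 4 groups), 3 had an animal far from the other 3 by Dixon's test; chance gives about 1 in 20. All 3 were controls. For LALBA, control replicate 3 was the lowest at 10825, with 16713 the next, a gap of 0.858 of the group's log2 range. For CSN3 the same animal was the highest at 18724, with 17529.7 the next, a gap of 0.840 of a narrow range. For PAEP, control replicate 1 was the highest at 903, with 175 the next, a gap of 0.861 of the range; that array was also the highest in skeletal muscle markers, at 2.92 on the centred log2 scale, and the part of this in its PAEP signal was not tested.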

How the results depend on the processing

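Over 84 results (14 probe sets in 6 comparisons) and 33 alternative settings, 2706 values were computed, of which 2678 kept their side of the threshold, 23 lost the call, 5 gained it and 0 reversed a called direction; 104 values that had not passed changed sign. No paired analysis was possible because no animal was in more than 1 group. CEE against control had 0 calls, and 1 (LPO) with array weights (adjusted p 0.0459 in limma) or at a threshold of 0.10. CEE+MPA against control had 1 call (LPO), and 0 within the high or the low spike-in set or without the 4 muscle-rich arrays; leaving out 1 array gave 0 to 1. Tibolone against CEE+MPA had 1 call (MUC15), and 0 with quantile normalization (adjusted p 0.0668 in limma), no filter (0.0712), only the 2 groups (0.121), the mean of a gene's probe sets (0.108), the spike-in sets as a block (0.106), within the high set, with a muscle covariate (0.0741) and without the muscle-rich arrays. With a luminal covariate it had 2 (BTN1A1, -2.15 ± 0.59, adjusted p 0.0469, and OLAH, -1.88 ± 0.48, adjusted p 0.0391, in limma), and leaving out 1 array gave 0 to 2. The other 3 comparisons had 0 calls under every setting. Median centring shifted all genes by -0.11 in tibolone against CEE+MPA. The same alternatives, applied to 13 calls on the pathway lists after seeing the data, reversed 0 of them; leaving out 1 array kept 1 to 7 of 7 in CEE+MPA against control and 1 to 6 of 6 in tibolone against CEE+MPA. The low spike-in set held no tibolone arrays, so tibolone was not compared there. The causes of these changes were not tested. Groups of 4 limit what could be detected for genes as variable as LALBA.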
